A study of Homo sapiens with 29 samples.

Results

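The stereoisomers WX-02-23 and WX-02-43 were compared with each other for their effect on open chromatin in parental 22Rv1 cells, a human prostate cancer line that grows with androgen receptor signalling. The comparison rests on 6 of the 29 ATAC-seq libraries of the series, 3 per isomer, each from cells given 20 µM compound for 3 h. Peaks of these 6 lists were merged wherever they overlapped or touched, which gave 123736 regions on chromosomes 1 to 22, X and Y. A region was assigned to one isomer when all 3 of its lists held a peak there and none of the 3 lists of the other isomer did. By this rule 3315 regions (2.68%) were held by one isomer only. The 3 parental libraries given DMSO (0.1%) for 3 h served to say which isomer departed from vehicle.

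The other libraries were used to look up these regions and, in the engineered lines, to choose further sets of regions on which the isomers were compared. Pladienolide B (PladB), a compound that binds SF3B1 and PHF5A in the spliceosome, had been given to parental cells for 3 h at 10 nM or 100 nM (3 libraries each). A pair of engineered 22Rv1 lines overexpressed Y36C-PHF5A, a variant that blunts the response to PladB, and carried a FOXA1 gene switched on by doxycycline (Dox), either WT-FOXA1 or C258A-FOXA1. Both lines had received Dox together with DMSO, WX-02-23 (20 µM) or PladB (100 nM), with 2 libraries per group. A further pair of libraries came from WT-FOXA1 cells given DMSO and no Dox. Every line with an inducible FOXA1 thus also carried Y36C-PHF5A, and whether the engineered cells keep their own FOXA1 is not stated in the labels.

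ATAC-seq marks DNA that a transposase can reach, so a peak is a stretch of accessible chromatin, usually a promoter or an enhancer. FOXA1 is a forkhead pioneer factor: it binds its sites in closed chromatin, opens them and lets the androgen receptor bind at prostate enhancers. Stereoprobes are reactive small molecules made as sets of stereoisomers, so that a protein engaged by one isomer and not by another can be recognised. WX-02-23 engages a cysteine of FOXA1 that the C258A variant lacks.

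The 6 lists were of similar depth except for one. Peaks per list numbered 97445, 93866 and 95707 with WX-02-23 and 96471, 98079 and 83748 with WX-02-43. Read totals were not given, so the background that the peak caller assumed, read back from the fold and p columns, was the relative measure of depth. It lay between 0.923 and 1.121 reads per base in 5 of the lists and at 1.502 in WX-02-43 replicate 3. By this measure that library was the deepest of the 6, yet it held the fewest peaks. The reason was not tested. WX-02-43 replicate 3 thus stood apart, and results that it decides are given with and without it. The vehicle lists had a background of 0.881 to 1.002. The labels do not say whether replicates came from separate cultures, so p-values measure the spread between these libraries only.

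Most accessible regions were shared. All 6 lists held 63324 regions (51.2%). WX-02-23 alone held 1992 regions, or 1.61% of the 123736. WX-02-43 alone held 1323 regions, or 1.07%. Of the near misses, 2674 regions were held by 3 WX-02-23 lists and 1 WX-02-43 list, and 3458 by 2 WX-02-23 lists and no WX-02-43 list. In the other direction 1797 and 2968 regions fell just outside the rule. The ratio of 1.51 between the directions rested on WX-02-43 replicate 3: without it, 2292 regions were held by WX-02-23 only and 3221 by WX-02-43 only. Leaving out any 1 of the 6 lists, so that fewer lists must match, gave 2292 to 3399 and 1797 to 3221 regions. With all lists cut to equal length, the counts were 1591 and 1546. WX-02-23 only made up 60.1% of the regions in the full lists, 50.7% in lists of equal length and 41.6% without WX-02-43 replicate 3, so no surplus in one direction can be stated.

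**Figure D1:**
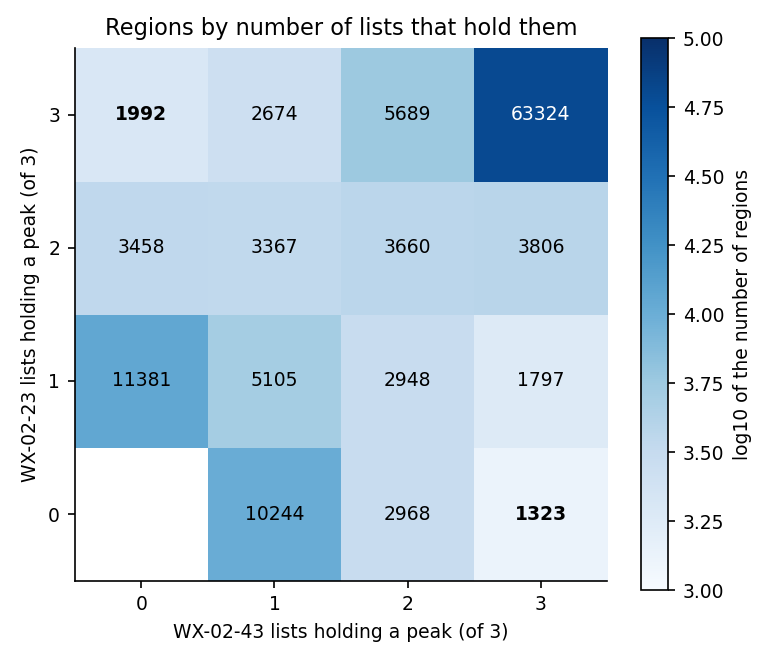
Number of merged regions by how many of the 3 WX-02-23 lists (vertical axis) and of the 3 WX-02-43 lists (horizontal axis) held a peak in them, with colour on a log10 scale. The cells in bold are the 1992 and 1323 regions held by one isomer only, beside 63324 regions held by all 6 lists.

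Set against vehicle, WX-02-23 was the isomer that departed at most of these regions. Of the 1992 regions held by WX-02-23 only, 1240 (62.2%) had no peak in any DMSO list and 87 (4.37%) had one in all 3. Of the 1323 regions held by WX-02-43 only, 642 (48.5%) had a peak in all 3 DMSO lists and 102 (7.71%) in none. Over all 123736 regions the shares were 57.8% in all 3 DMSO lists and 19.3% in none. Those include the regions held by all 6 lists. Over the regions found in 1 to 5 of the 6 lists the shares were 18.6% and 39.3%. WX-02-23 therefore differed from a uniform vehicle pattern at 1882 regions, 1240 by an added peak and 642 by a missing one. WX-02-43 did so at 189 regions, 87 by a missing and 102 by an added peak. At the remaining 1244 regions the DMSO lists differed among themselves. Both isomers were set against the same DMSO libraries. The ratio of 9.96 between 1882 and 189 regions was 2.95 (2236 against 759) without WX-02-43 replicate 3, 3.51 and 3.56 without replicates 1 and 2 of WX-02-43, and 5.81, 6.48 and 6.59 without DMSO replicates 1, 2 and 3, each time with WX-02-23 on the larger side. Allowing 1 library to differ gave 3.26.

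The same look-up can be given per DMSO library, which restates these counts and adds no separate evidence. DMSO replicates 1, 2 and 3 held 14.96%, 24.4% and 19.5% of the regions found with WX-02-23 only, and 68.6%, 77.5% and 71.1% of those found with WX-02-43 only. Over all 123736 regions they held 67.3% to 71.7%, and of the regions found in 1 to 5 of the 6 lists 35.6%, 43.6% and 37.6%. Each DMSO library thus held a smaller share of the regions found with WX-02-23 only, and a larger share of those found with WX-02-43 only, than of the regions that varied among the 6 lists.

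**Figure D2:**
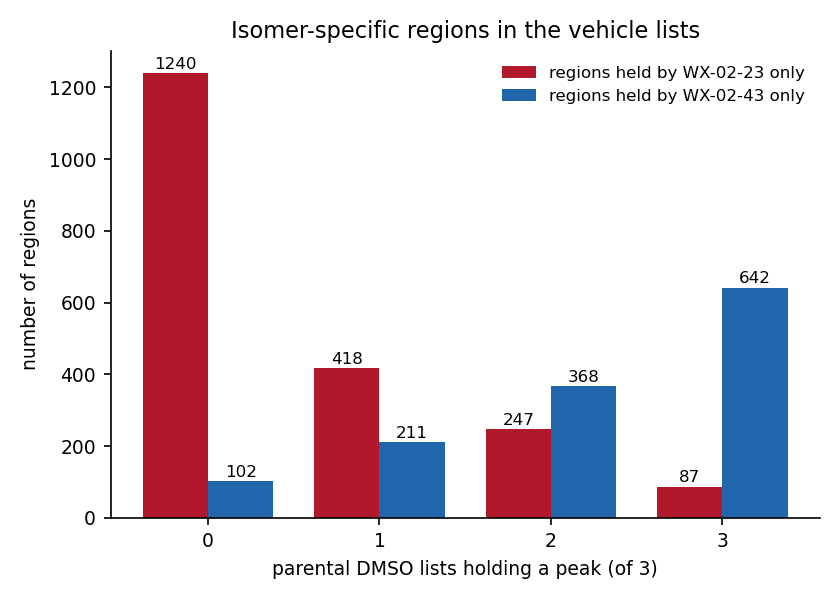
Number of regions held by WX-02-23 only (red bars) and by WX-02-43 only (blue bars), by how many of the 3 parental DMSO lists held a peak there. The red bars are tallest at 0 DMSO lists (1240) and the blue bars at 3 (642).

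Measures that do not use the chosen regions were tested over the 6 libraries, 10 in all, with exact two-sided permutation tests. With 3 against 3 libraries no p-value can fall below 0.1, so none can pass 0.05. The range of the 9 differences between a WX-02-23 and a WX-02-43 library is given as a rank-based 90% interval. The amount of open chromatin overlapped between the isomers. Peaks per list averaged 95673 ± 1790 with WX-02-23 and 92766 ± 7851 with WX-02-43 (SD, n = 3 each), a difference of 2907 with an interval from -4213 to 13697 and an exact permutation p of 0.9. Peaks covered 39.3 ± 1.2 Mb and 37.7 ± 3.7 Mb (SD, n = 3 each), with an interval of the difference from -2.39 to 7.07 Mb and an exact permutation p of 0.6. The median peak was 315 bp wide in both groups, with an interval of the difference from -7 to 7 bp. Both the difference in peaks and that in Mb changed sign without WX-02-43 replicate 3, to -1602 peaks and -0.503 Mb.

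Likeness to vehicle gave ranges that did not overlap between the isomers, lower with WX-02-23. The Jaccard index divides the bases that both lists cover by the bases that at least one covers. It averaged 0.691, 0.683 and 0.686 between the WX-02-23 libraries and the 3 DMSO libraries. For the WX-02-43 libraries it was 0.712, 0.720 and 0.703. Every WX-02-23 library lay below every WX-02-43 library. The difference was -0.0250 (SE 0.0054), with an interval from -0.0367 to -0.0121, an exact permutation p of 0.1, and 0.25 once adjusted by Benjamini-Hochberg for the 10 measures. Within WX-02-43 the index averaged 0.710 ± 0.013 (SD over 3 pairs), much as between WX-02-43 and DMSO at 0.711 ± 0.008 (SD over 9 pairs). Within WX-02-23 it was 0.724 ± 0.005 (SD over 3 pairs), and between the isomers 0.688 ± 0.010 (SD over 9 pairs).

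In the lists as deposited, the share of peaks outside the vehicle lists did not overlap between the isomers either, while the share of vehicle regions held did. Peaks that overlapped none in any DMSO list made up 9.60%, 8.76% and 9.07% of the WX-02-23 lists and 6.80%, 7.04% and 3.28% of the WX-02-43 lists. The groups did not overlap, and the difference was 3.44 points (interval 1.72 to 6.32, exact permutation p = 0.1, adjusted 0.25). Of the 72530 regions that all 3 DMSO lists held, the WX-02-23 libraries held 94.97%, 93.2% and 94.0%. The WX-02-43 libraries held 96.4%, 97.4% and 92.4% of them, so replicate 3 fell below all the WX-02-23 libraries while the others lay above. That difference was -1.38 points, with an interval from -4.21 to 2.54 and an exact permutation p of 0.5. Without WX-02-43 replicate 3 it was -2.88 points. Both overlaps depended on the processing. At a q-value of 1e-05 or below, the difference in peaks outside vehicle was 3.41 points and the groups overlapped (exact permutation p = 0.2). With lists of equal length, the difference in vehicle regions held was -2.375 points and the groups did not overlap (exact permutation p = 0.1).

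Regions chosen in the engineered lines gave a comparison of the isomers on sites that neither parental group had helped to choose. In the WT-FOXA1 line 1333 regions had a peak in both WX-02-23 libraries and in neither DMSO library, both with Dox. The parental WX-02-23 libraries held 46.3%, 44.9% and 43.9% of these regions and the WX-02-43 libraries 29.4%, 31.5% and 23.7%. DMSO libraries of the parental cells held 24.2%, 26.9% and 24.5%. All WX-02-23 libraries therefore lay above all WX-02-43 libraries, whose range took in that of vehicle. The difference between the isomers was 16.8 points (SE 2.4), with an interval from 12.4 to 22.6, an exact permutation p of 0.1 and 0.25 after adjustment. Leaving out each library in turn gave 14.6 to 18.5 points, and lists of equal length gave 11.0.

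The C258A-FOXA1 line gave the same order. Of its 2583 regions gained with WX-02-23, the parental WX-02-23 libraries held 61.1%, 59.6% and 59.6% and the WX-02-43 libraries 47.9%, 50.5% and 39.2%. DMSO libraries held 41.9% to 47.0%, within the range of WX-02-43 and below every WX-02-23 library. The difference was 14.2 points (SE 3.5, interval 9.06 to 21.9, exact permutation p = 0.1, adjusted 0.25). At regions lost with WX-02-23 in the engineered lines the isomers overlapped. Of the 12130 lost in the WT-FOXA1 line, WX-02-23 libraries held 59.5% ± 2.0 and WX-02-43 libraries 63.9% ± 5.4 (SD, n = 3 each), with 63.0% to 66.8% in DMSO, a difference of -4.45 points (interval -11.0 to 3.28, exact permutation p = 0.3). Of the 2922 lost in the C258A-FOXA1 line they held 54.2% ± 2.9 and 61.7% ± 6.9 (SD, n = 3 each), with 61.2% to 66.0% in DMSO, a difference of -7.51 points (interval -15.9 to 3.11, exact permutation p = 0.3). WX-02-43 replicate 3 lay within the range of the WX-02-23 libraries at both sets. Without it the differences were -7.50 and -11.4 points, and without WX-02-43 replicate 2 they were -2.30 and -4.76. With lists of equal length they were -8.82 and -7.71 points, with exact permutation p-values of 0.1.

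**Figure D3:**
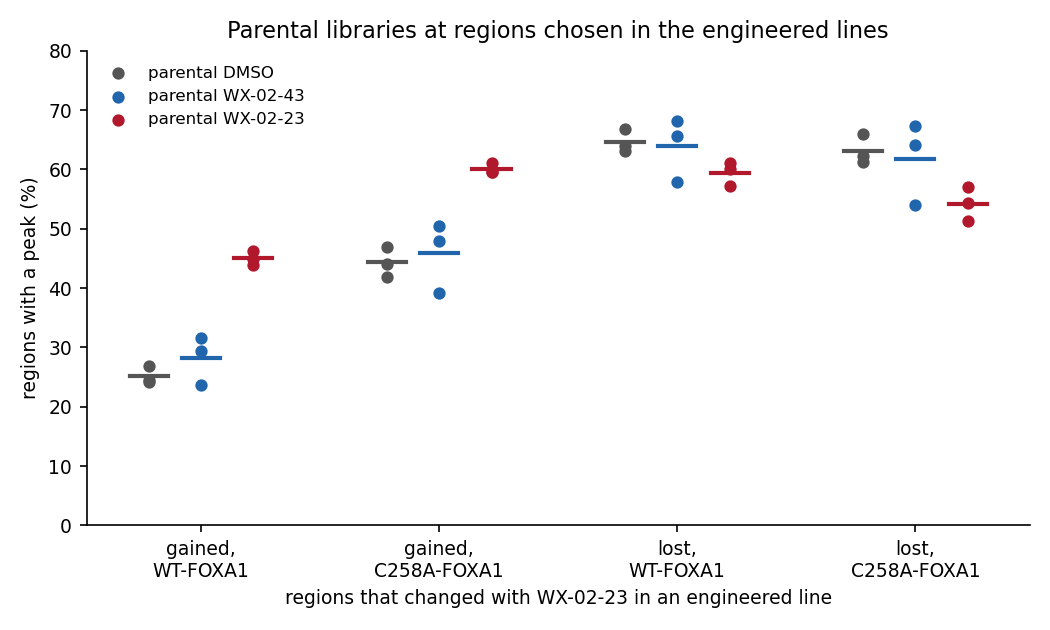
Share of regions with a peak (%) in each parental library, for regions that were gained or lost with WX-02-23 in an engineered line, with lines at the mean of 3 libraries. At both gained sets the 3 WX-02-23 libraries (red) sit above the WX-02-43 (blue) and DMSO (grey) libraries, while at the lost sets red and blue overlap.

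Regions held by one isomer only were of low to moderate strength. By the authors' p-value, ranked within each list, the median percentile was 24.1 for WX-02-23 only and 23.9 for WX-02-43 only, while regions common to the 6 lists had medians of 65.4 and 64.3. The merged regions were narrow, with medians of 308 and 305 bp against 554 bp. The authors' fold enrichment over local background had medians of 5.88 and 5.68. Just outside the rule, regions of 3 lists against 1 had median percentiles of 25.0 and 23.4, and regions of 2 lists against 0 had 15.3 and 15.4. Among the 4 classes in which the DMSO lists were uniform, the lowest median percentile, 15.6, was that of the 102 regions held by WX-02-43 only and absent from vehicle. None of these 102 reached a mean percentile of 50, which 99 of the 1240 regions held by WX-02-23 only and absent from vehicle did.

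Among regions held by all 3 lists of one isomer, the share without any peak in the other declined with strength. Of 774 regions under percentile 10 with WX-02-23, 20.7% lacked a peak in all WX-02-43 lists, against 2.15% of 8417 regions between percentiles 40 and 50 and none of 9361 above percentile 90. For WX-02-43 the shares were 18.5% of 632 regions, 1.33% of 8178 and none of 9003. The strongest accessible sites were therefore common to both isomers. A summit on the general background needed at least 6 to 8 reads to be called, and a region without a peak may still be open below that level.

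**Figure D4:**
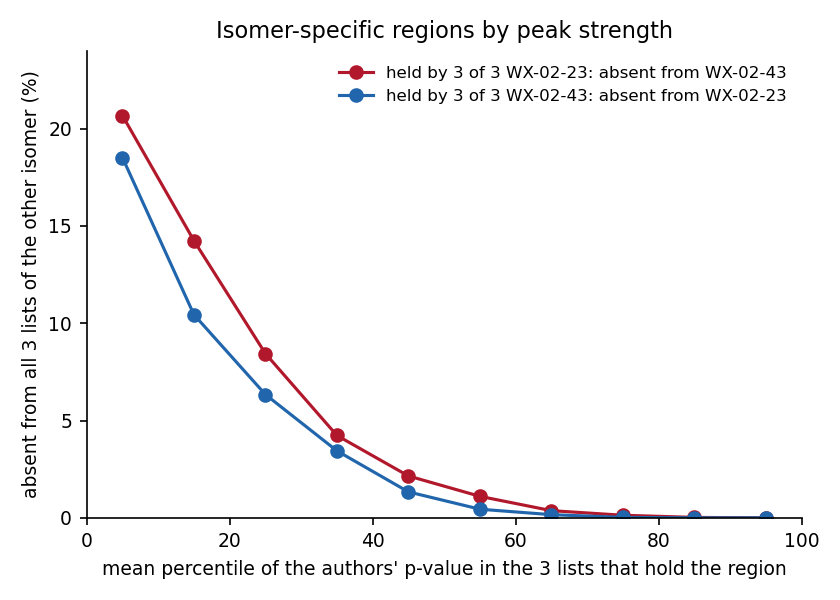
Share of regions absent from all 3 lists of the other isomer (%), against the authors' p-value as a percentile averaged over the 3 lists that held the region, in steps of 10 percentiles. Both curves decline from 20.7% and 18.5% at the weakest peaks to 0% at the strongest.

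A few sites were strong with one isomer and had no peak with the other. They were ranked by mean percentile and are given in build hg19, with the authors' fold enrichment in each list. The top region held by WX-02-23 only and absent from vehicle lay at chr13:105137929-105138562. Its fold enrichment was 17.5, 13.8 and 12.5 in WX-02-23 replicates 1, 2 and 3. The second lay at chr10:63090300-63090898, with values of 16.8, 13.6 and 13.2. The third lay at chr21:19514951-19515610, with 14.3, 11.8 and 11.3. In each of these 3 regions all WX-02-23 lists were more than 11-fold over background while no WX-02-43 or DMSO list had a peak. The next were chr8:56784170-56784656, chr17:80019289-80019693 and chr8:84625929-84626426. None of the 6 had a peak in any parental PladB list or in the WT-FOXA1 line without Dox. At 5 of the 6, all but the chromosome 17 region, at least 1 WX-02-23 library of each engineered line held a peak. The chromosome 21 region also had a peak in 1 WT-FOXA1 DMSO library with Dox. Of all 1240 regions of this class, 77.9% had no peak in any PladB list at 10 nM and 83.1% none at 100 nM. Over the regions found in 1 to 5 of the 6 lists these shares were 41.2% and 52.9%. The libraries without Dox held no peak at 94.5% of the 1240 and at 78.1% of the regions of 1 to 5 lists. Neither WX-02-23 library held a peak at 60.8% of the 1240 in the WT-FOXA1 line and at 58.3% in the C258A-FOXA1 line. Over the regions of 1 to 5 lists these shares were 85.6% and 72.2%. The 1240 were also chosen for absence from vehicle, which the regions of 1 to 5 lists were not.

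The strongest regions held by WX-02-43 only and present in vehicle were enriched in all lists of both groups. The first lay at chr17:31158546-31159095, with fold values of 7.57, 8.57 and 7.59 in WX-02-43 and 7.31, 8.52 and 8.15 in DMSO. The second lay at chr10:27292341-27292842, with 14.8, 14.3 and 10.8 in WX-02-43 and 11.8, 17.3 and 13.8 in DMSO. The groups overlapped at both, and no WX-02-23 list had a peak in either. At chr14:90121247-90121714 the values were 9.94, 8.50 and 8.41 in WX-02-43 and 7.97, 7.69 and 5.76 in DMSO. At chr2:201530318-201530925 they were 8.64, 8.78 and 8.25 in WX-02-43 and 7.84, 7.91 and 7.93 in DMSO. At these 2 regions every DMSO value lay below every WX-02-43 value. The regions were ranked on their WX-02-43 lists, which favours high values there, and fold describes peaks within a list. No difference between WX-02-43 and DMSO is therefore read from these values. The others, chr12:15574233-15574585 and chr3:102312622-102313090, had overlapping values of 8.68 to 11.6 in WX-02-43 and 8.91 to 11.9 in DMSO. In the engineered lines, 5 of the 6, all but the chromosome 12 region, had a peak in both DMSO libraries of each line. With WX-02-23, neither library of the WT-FOXA1 line held 4 of these 5, and both held the chromosome 10 region. In the C258A-FOXA1 line both WX-02-23 libraries held all 5. The whole class of 642 regions was not like these 5. With WX-02-23, C258A-FOXA1 cells had a peak in both libraries at 20.6% of the 642 and in neither at 60.7%. With DMSO they had a peak in both libraries at 40.3%. WT-FOXA1 cells given WX-02-23 had a peak in both libraries at 3.89% and in neither at 88.9%. With DMSO and Dox they had a peak in both at 43.6%. Regions found in 1 to 5 of the 6 lists give a background for these shares. With WX-02-23, C258A-FOXA1 cells had a peak in both libraries at 10.96% of them and in neither at 72.2%. WT-FOXA1 cells did so at 5.37% and 85.6%. With DMSO and Dox, both libraries held 12.9% of them in C258A-FOXA1 cells and 14.4% in WT-FOXA1 cells. The 642 were chosen for a peak in all parental DMSO lists, which the regions of 1 to 5 lists were not. Whether the lines differed at the 642 regions was not tested.

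Sites at which WX-02-43 departed from vehicle were fewer. The top one that lacked a peak with WX-02-43 lay at chrX:125683258-125683956, with fold values of 13.1, 11.5 and 11.7 in WX-02-23 and 10.6, 6.49 and 6.77 in DMSO. It was followed by chr5:137995725-137996168 and chr6:102092782-102093307. The top one with an added peak lay at chr5:71909439-71909706, with fold values of 8.50, 8.30 and 6.23 in WX-02-43. The next, chr5:111753819-111754044 and chr20:13768946-13769154, averaged 5.11 ± 0.33 and 4.29 ± 0.07 (SD, n = 3 each). Genes at all these positions were not analysed here.

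In the engineered lines, which took no part in choosing the regions, regions held by WX-02-43 only had fewer peaks with WX-02-23 than with DMSO. In the WT-FOXA1 line with Dox, the 2 DMSO libraries held 42.6% and 38.7% of the 1323 regions held by WX-02-43 only, and the 2 WX-02-23 libraries 7.94% and 6.27%. The change was -33.5 points (SE 2.1), against -13.0 points over all 123736 regions. In the C258A-FOXA1 line the DMSO libraries held 36.3% and 40.1% and the WX-02-23 libraries 18.1% and 28.3%, a change of -14.97 points (SE 5.5) against -1.26 over all regions. The groups did not overlap in either line. A peak in 2 of 2 DMSO and 0 of 2 WX-02-23 libraries was found at 305 (23.1%) of these regions in the WT-FOXA1 line, where 7.08% of all regions met that pattern. In the C258A-FOXA1 line it was found at 98 (7.41%), where 1.72% of all regions met it. Both lines met it at 46 (3.48%), against 0.518% of all regions. With 2 against 2 libraries no p-value can fall below 0.33, and these changes were not tested.

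The WX-02-23 lists of the WT-FOXA1 line held 67815 and 62832 peaks and the DMSO lists 88140 and 85009. Equal length was set by cutting these 4 lists and, separately, the parental isomer and DMSO lists, so the regions were chosen anew. The change was then -17.7 points at 1546 regions held by WX-02-43 only. At 1591 regions held by WX-02-23 only it was 17.3 points, beside 3.82 points (SE 3.2) at the 1992 regions of the full lists. The part of list length, apart from the new choice of regions, was not tested. In the full lists the DMSO libraries held 24.3% and 21.4% of the 1992 regions and the WX-02-23 libraries 29.5% and 23.8%, so the groups overlapped. The sign of this change depended on the regions chosen. It was -0.649 at the 3084 regions chosen without parental WX-02-43 replicate 1 and -1.39 at the 3317 chosen without replicate 2. In the C258A-FOXA1 line the shares were 16.2% and 18.9% with DMSO and 25.3% and 36.3% with WX-02-23, which did not overlap, a change of 13.3 points (SE 5.7). The larger WX-02-23 share came from a list of 92658 peaks and the smaller from one of 76645, beside 84260 and 87171 with DMSO. A peak in 2 of 2 WX-02-23 and 0 of 2 DMSO libraries was found at 113 (5.67%) of the regions in the WT-FOXA1 line and at 150 (7.53%) in the C258A-FOXA1 line, where 0.55% and 1.44% of all regions met that pattern. Both lines met it at 29 regions (1.46%), against 0.112% of all regions. All regions include those held by all 6 lists, and a region with a DMSO peak cannot meet this pattern. In the WT-FOXA1 line both DMSO libraries held 49.1% of all regions and 14.4% of those found in 1 to 5 of the 6 lists. The pattern was not counted over the latter.

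Dox in the WT-FOXA1 line, without any probe, also went with peaks at the WX-02-23 regions. Without Dox, the 2 DMSO libraries of the WT-FOXA1 line held 8.08% and 7.08% of the regions held by WX-02-23 only, and with Dox 24.3% and 21.4%, a ratio of 3.01. Parental DMSO libraries held 14.96% to 24.4% of the same regions. At the 1240 of these regions that parental DMSO lists lacked, the mean share was 3.39% without Dox and 19.6% with it. The regions held by WX-02-43 only went from 30.3% to 40.6%, a ratio of 1.34, and regions found in 1 to 5 of the 6 lists from 15.3% to 22.3%, a ratio of 1.46. Lists with Dox were longer, at 85009 and 88140 peaks against 67195 and 69814. In lists of equal length the share at the WX-02-23 regions was 7.03% without and 13.2% with Dox, while that at the WX-02-43 regions was 28.5% without and 25.4% with Dox and thus of the opposite sign. In that setting the regions of 1 to 5 lists went from 14.4% to 11.9%. This look-up was chosen after seeing the data, compares 2 libraries with 2 and was not tested. No group received Dox without an inducible FOXA1, so Dox itself and the induction of FOXA1 cannot be told apart.

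With PladB, shares were lower than with DMSO at the WX-02-43 regions and overlapped DMSO at the WX-02-23 regions. Of the regions held by WX-02-43 only, the 10 nM libraries held 66.3%, 57.7% and 53.7% and the 100 nM libraries 36.8%, 47.7% and 39.8%, where DMSO held 68.6% to 77.5%. All PladB libraries lay below all DMSO libraries, and all 100 nM libraries below all 10 nM libraries. Over all regions the ranges were 65.2% to 71.9% at 10 nM and 60.8% to 63.7% at 100 nM. Of the regions held by WX-02-23 only, PladB libraries held 19.7% to 27.8% at 10 nM and 15.7% to 19.4% at 100 nM, which overlapped the 14.96% to 24.4% of DMSO. PladB was given at other doses than the isomers, so no comparison between the compounds is made. List length moved with these shares, at 91632 to 98193 peaks with DMSO, 88818 to 98083 at 10 nM and 82538 to 87426 at 100 nM, and its part in them was not tested.

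**Figure D5:**
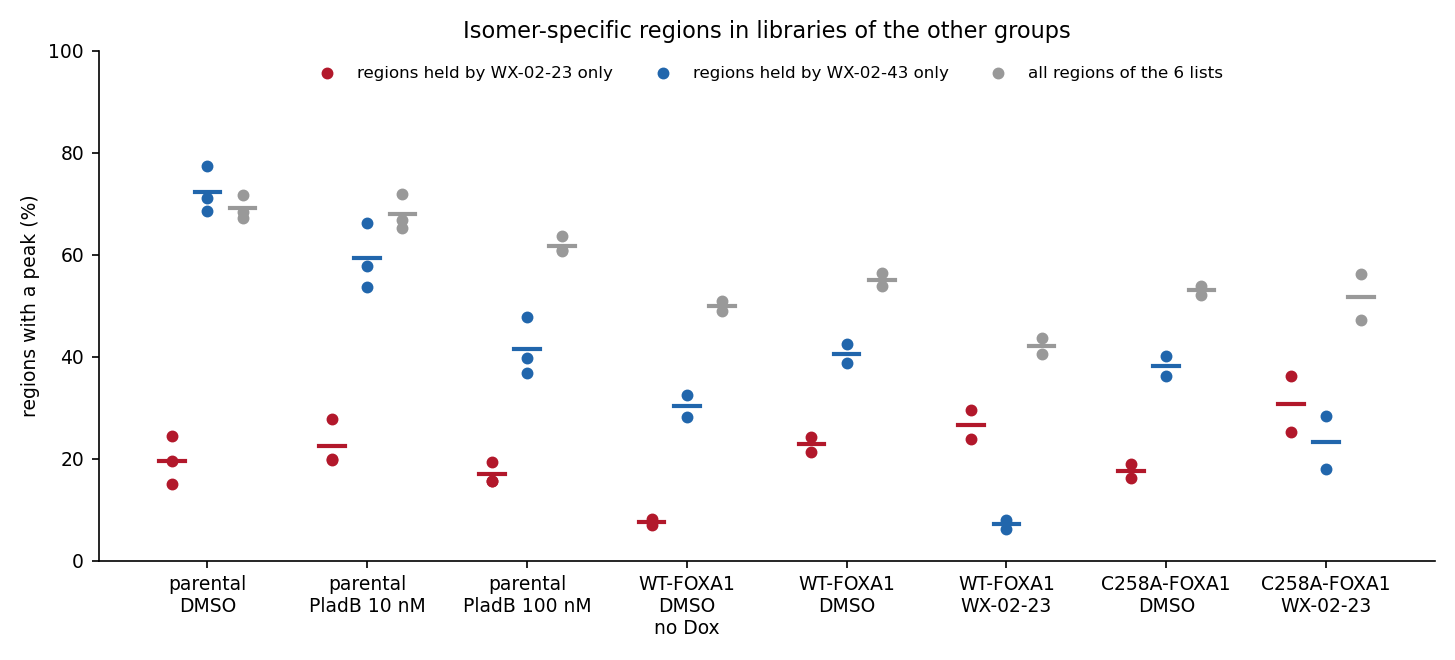
Share of regions with a peak (%) in each library of groups that did not define the regions, for regions held by WX-02-23 only (red), by WX-02-43 only (blue) and for all 123736 regions (grey), with lines at group means. Blue points drop to 7.94% and 6.27% in the WT-FOXA1 line with WX-02-23, and red points are lowest, at 8.08% and 7.08%, in that line without Dox.

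Within regions that both isomers shared, few differences in the position or width of peaks were called. The test covered 50642 regions with exactly 1 peak in each of the 6 lists. By limma with Benjamini-Hochberg adjustment, the summit lay at another position in 65 regions (0.128%), 30 further along the chromosome with WX-02-23 and 35 less far. Unadjusted limma p-values under 0.05 were found at 5.09% of the regions, and the groups did not overlap at 9.54%. Without any difference, shares of about 0.05 and, for 3 against 3 libraries, 0.1 would be met, so both lay near that level. The clearest shift was at chr12:56122536-56123687. There the summit lay 344, 360 and 361 bp from the region's start with WX-02-23 and 1005, 1006 and 984 bp with WX-02-43, an adjusted p of 0.000362. On chr10:18429065-18430141 it lay at 706, 710 and 681 bp with WX-02-23 and at 241, 221 and 210 bp with WX-02-43. Without WX-02-23 replicate 1 or 2, limma called 108 and 99 regions. With the replicate number as a block, it called 0, with 0.11 as the lowest adjusted p.

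Peak width, centred per library, differed at 18 of the shared regions (0.0355%) by limma, 11 wider and 7 narrower with WX-02-23, and the groups did not overlap at 14.5%. On chr12:64987194-64987948 the peak measured 229, 221 and 238 bp with WX-02-23 and 682, 732 and 746 bp with WX-02-43. On chr8:126167000-126167584 it measured 537, 498 and 514 bp with WX-02-23 and 199, 198 and 155 bp with WX-02-43. Leaving out any of the 6 libraries, or adding the block, left 0 calls by limma, with adjusted p-values of at least 0.0768, while 9.86% of the regions had an unadjusted p under 0.05 in the full fit.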

How the data were processed

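ATAC-seq of 22Rv1 cells was deposited as 1 peak list per library, so replicates were not pooled. Per the submitters' processing notes, reads were aligned with Bowtie2 and peaks called with MACS2 on build hg19. The sources used here do not name versions, options, duplicate removal or read shift. For every peak the authors deposited a score, a ratio of signal to local background (fold enrichment), and its p-value and q-value, both as −log10. These values describe peaks within a list, and presence of a peak (at least 1 bp overlap) was compared between lists. Groups came from the labels.

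The background of a list was the commonest value that satisfied both its fold and its Poisson p (tolerance 0.01 in −log10 p), met by 19.8% to 23.8% of peaks in the 9 isomer and vehicle lists. Exact permutation tests covered 20 arrangements. Summit position and log2 width in shared regions were tested with limma 3.58.1 in R 4.3.3, from deposited starts, ends and summits. Named regions were, by rule, the 6 or 3 of each class with the highest mean percentile, and for shared regions those of lowest p. Alternatives covered thresholds, list length, overlap, region definition, the replicate number as a block and each library left out. Genes, cell type markers, motifs and sequences were planned and are not analysed here, because no hg19 genome or annotation was used here. The members and lists were chosen with earlier results of these data known.

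In simulated data for WX-02-23 against WX-02-43 with 123736 regions, the counting recovered 100% of 200 changed regions each way at full detection. It recovered 73.0% and 75.0% at a detection rate of 0.9, and 29.5% and 32.0% at 0.7. Unchanged regions were identical in all simulated lists, so recovery follows from the detection rate and false calls could not arise. The real lists vary, so this checks the counting only. limma recovered 164 of 200 summits moved by 300 bp and 149 of 200 peaks widened by 1.5 on the log2 scale, among 50642 regions, with 12 and 9 false calls. Merging and overlaps were checked against bedtools 2.31.1. The other tools were scipy 1.17.1, numpy 2.4.6, matplotlib 3.10.9 and pandas 2.3.3 under Python 3.11.15.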

Additional observations from a re-analysis of the deposited data

How the results depend on the processing

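Of 270 alternative values for 24 results, 58 of 86 counts of regions stayed within 1.5 times, as did 9 of 19 counts of calls in shared regions. Changes of a share stayed within the spread between libraries in 49 of 62 cases. Of 103 alternatives for values per library, 2 were of the opposite sign, leaving aside the median peak width, whose difference was 0 as reported and took both signs. Allowing 1 library to differ raised every count: 8124 regions for WX-02-23 only and 6088 for WX-02-43 only, of which 3878 and 1074 were absent from vehicle and 759 and 2093 present in it. It also turned the change of the WX-02-23 regions with WX-02-23 in the WT-FOXA1 line to -4.21 points, and gave -24.1 at the WX-02-43 regions. Lists of equal length gave 17.3 and -17.7 points for these changes and windows around summits -30.0 for the second. For the change with Dox, equal lists gave 6.17 points at the WX-02-23 regions and -3.14 at the WX-02-43 regions, and 50% coverage gave 12.8 at the former. Fewer weak peaks in the longer lists, or a looser rule, follow from the construction of these alternatives, and beyond that the cause was not tested.

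Leaving out 1 library at a time gave 2292 to 3399 regions for WX-02-23 only and 1797 to 3221 for WX-02-43 only, since fewer lists must match. WX-02-23 only and absent from vehicle ranged from 1290 to 2077 and present in vehicle from 119 to 376. WX-02-43 only and present in vehicle ranged from 711 to 1054 and absent from vehicle from 125 to 626. The change with WX-02-23 in the WT-FOXA1 line ranged from -1.39 to 1.61 points at the WX-02-23 regions and from -32.5 to -24.5 at the WX-02-43 regions. The change with Dox ranged from 13.8 to 16.7 and from 8.20 to 12.5 points. The difference in peaks per list ranged from -1602 to 5563 and that in Mb covered from -0.503 to 2.99. Summit calls ranged from 56 to 108 and width calls stayed at 0.

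The replicate number as a block left 0 summit and 0 width calls by limma. It cannot alter the counts of regions, which are the same set by construction, or the mean differences, which are equal by arithmetic. These cases are among the alternatives counted above as unchanged. An exact sign-flip test on the differences between same-numbered libraries cannot give a p-value below 0.25. The labels do not say that a number marks a shared batch. Correlations of the deviations of same-numbered libraries were 0.0188, 0.0115 and 0.0180 for summits and 0.00246, -0.0210 and -0.0165 for widths, so the numbers were not taken as pairs. For summits every library correlated best with its own number, at these small values.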

Other observations

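Regions held by one isomer only were found on every chromosome used. Chromosome 19 had few of them, at 0.711% of its 4362 regions for WX-02-23 only and 0.504% for WX-02-43 only, and 63.0% of its regions were held by all 6 lists, the highest share of any chromosome. Chromosome 5 had 2.19% for WX-02-23 only, the highest share among the autosomes. The nearest region held by all 6 lists was a median of 14.96 kb from a region held by WX-02-23 only and 11.5 kb from one held by WX-02-43 only, where other regions not in all 6 lists, these included, gave 12.5 kb. A region held by WX-02-43 only lay within 10 kb of a region held by WX-02-23 only in 33 of 1323 cases (2.49%), against 1.85% of the regions not in all 6 lists.

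Of 2898 windows of 1 Mb, 1370 held at least 1 region of WX-02-23 only, and 918 of these held a single one. For WX-02-43 only, 1034 windows held at least 1, and 790 of these a single one. The most for WX-02-23 only was 6, in 4 windows, among them chr3:80000001-81000000 (6 of 25 regions, 24%) and chr6:141000001-142000000 (6 of 24 regions, 25%). For WX-02-43 only it was 4, in 3 windows, among them chr10:24000001-25000000 (4 of 57 regions) and chr12:83000001-84000000 (4 of 44 regions).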
